A study of Mus musculus with 113 samples.

Results

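The Bcl2 family was followed through neural induction of mouse embryonic stem cells, for the 10 genes whose symbols are Bcl2, Bcl2l1, Mcl1, Bax, Bak1, Bok, Bcl2l11, Bid, Bad and Bmf. The rule was the symbol alone and used no measured value, though the family was picked with earlier results of these data known. All 10 were among the 13541 genes measured in the aggregate populations, of the 13738 in the adherent cultures and of the 23107 in the E14 samples, and 9 were among the 11449 genes of the single cells, where Bcl2 was not listed. The populations were wild-type R1 embryonic stem cells in SFEB culture, in which aggregates resembling embryoid bodies float in medium without serum, in a first series of 14 times from 0 to 142 h and a parallel series of 8 times from 0 to 216 h, with 1 library per time. The same line was induced as an adherent monoculture at 15 times from 0 to 216 h, and 64 hand-picked single cells of the SFEB culture gave 8 cells at each of the 8 times of the parallel series. The line E14 was measured as wild type (WT) and as Fyn KO at days 0 and 4, in 3 replicates each, and the labels do not name the protocol that induced it. The Fyn KO was 1 clone in which CRISPR/Cas9 had removed a stretch of Fyn with its start codon, so the genotype and the clone cannot be told apart, and its WT controls carried no deletion. No source used here says that replicates were separate cultures, so the p-values below measure the spread between these samples, which may be technical.

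The family decides whether the outer mitochondrial membrane stays intact. Bcl2, Bcl2l1 (Bcl-xL) and Mcl1 are pro-survival members that hold the killers in check. Bax, Bak1 and Bok are effectors, which form pores that let cytochrome c out and so switch on the caspases. Bcl2l11 (Bim), Bid, Bad and Bmf are BH3-only members, sensors that carry a stress signal to the other classes. Pluripotent stem cells are known for standing close to the threshold of mitochondrial apoptosis, and Bcl2, Bcl2l1 and Mcl1 are all used in the developing nervous system.

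The labelled cells were checked against marker genes. In the SFEB populations the summed level of 9 naive pluripotency markers (of 10 listed) ran from 1073 down to 46.0 FPKM (fragments per kilobase of transcript, scaled to the mapped reads of the library), and that of 7 neuron markers (of 8 listed) reached 952 FPKM at 216 h. The naive sum was still 237 FPKM at 144 h in the parallel series. The neuron sum was 170 and 143 FPKM at 0 h and lowest at 60 h (70.7 FPKM). The sum of 8 neural progenitor markers was 640 and 605 FPKM at 0 h, lowest at 60 h (169 FPKM) and highest at 216 h (1649 FPKM). All 10 fibroblast markers were also present, none of them at 0 in every sample. Their sum was 835 and 896 FPKM in the SFEB samples at 0 h and between 14.3 and 130 FPKM from 22 h on, and it went from 346 to 45.5 FPKM in the adherent cultures, against at most 13.5 FPKM in any E14 sample. The E14 naive sum went from between 1289 and 1640 FPKM at day 0 to between 170 and 583 FPKM at day 4 in WT, and from between 1116 and 1450 FPKM to between 212 and 497 FPKM in the Fyn KO, while the neuron sum was 24.4 to 86.6 and 57.5 to 107 FPKM in WT and 121 to 207 and 50.4 to 67.0 FPKM in the Fyn KO. The neural progenitor sum was 153 to 213 and 194 to 343 FPKM in WT and 196 to 307 and 121 to 200 FPKM in the Fyn KO, at days 0 and 4 in turn, and the sum of 9 mesoderm and endoderm markers was 2.86 to 7.46 and 4.11 to 36.5 FPKM in WT and 3.29 to 16.6 and 0.902 to 7.02 FPKM in the Fyn KO. The part of these markers in the results was not tested, so slopes are also given without the early hours. In bulk samples fewer cells of a type and less RNA per cell cannot be told apart. The study states only a minimum number of reads per library, for the single cells and the parallel series, and the depth of each library is unknown here. The library labelled Fyn KO day 0 replicate 3 stood apart from its group (mean correlation with its group 0.939, the lowest of the 12), as did WT day 4 replicate 1 (0.944).

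Promoter windows are shown for the 5 members that changed in both induction protocols and have a single RefSeq start, and for the upstream start of Bcl2l11, the member that was at least 1.5-fold higher by 8 to 9 h in all 3 series. Each window covers 250 bases before and 50 after the start in RefSeq (GRCm38.p6), printed along the gene's own strand, and capitals mark matches on either strand to the motifs searched. The motifs were the GC box (GGGCGG), found in 35.7% of the 32851 promoters of that table, the CCAAT box (CCAAT, 37.4%), the E box (CACGTG, 7.15%), the cAMP response element (TGACGTCA, 1.79%) and a FOXO site (GTAAACA, 3.65%). A match describes the letters and is no evidence of binding. The riser comes first, then the 4 that fell, then Bcl2l11.
Bcl2 (chr1:106714241-106714540, minus strand): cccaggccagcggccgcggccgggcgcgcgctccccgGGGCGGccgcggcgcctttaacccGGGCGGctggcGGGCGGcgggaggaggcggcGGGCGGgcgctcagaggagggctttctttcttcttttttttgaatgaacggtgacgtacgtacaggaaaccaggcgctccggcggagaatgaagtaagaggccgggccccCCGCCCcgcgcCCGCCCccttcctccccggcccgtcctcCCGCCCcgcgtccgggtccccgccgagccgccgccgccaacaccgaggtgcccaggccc
Mcl1 (chr3:95658471-95658770, plus strand): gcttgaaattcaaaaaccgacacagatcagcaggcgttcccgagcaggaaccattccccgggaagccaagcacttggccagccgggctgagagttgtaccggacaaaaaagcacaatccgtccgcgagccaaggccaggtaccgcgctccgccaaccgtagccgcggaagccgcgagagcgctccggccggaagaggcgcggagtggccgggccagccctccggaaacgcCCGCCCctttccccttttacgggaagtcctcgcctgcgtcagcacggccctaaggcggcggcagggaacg
Bax (chr7:45466849-45467148, minus strand): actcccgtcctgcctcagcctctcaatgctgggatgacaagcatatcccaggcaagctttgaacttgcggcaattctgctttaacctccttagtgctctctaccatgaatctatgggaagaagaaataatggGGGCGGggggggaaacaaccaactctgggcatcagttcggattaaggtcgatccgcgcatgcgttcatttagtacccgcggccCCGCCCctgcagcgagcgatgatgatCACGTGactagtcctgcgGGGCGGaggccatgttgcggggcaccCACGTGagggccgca
Bid (chr6:120916775-120917074, minus strand): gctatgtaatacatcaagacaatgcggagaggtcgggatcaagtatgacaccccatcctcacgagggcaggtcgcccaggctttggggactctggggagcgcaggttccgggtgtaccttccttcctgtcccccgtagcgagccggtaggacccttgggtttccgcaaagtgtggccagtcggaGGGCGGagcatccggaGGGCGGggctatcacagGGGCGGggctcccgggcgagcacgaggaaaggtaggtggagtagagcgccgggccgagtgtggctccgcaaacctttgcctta
Bak1 (chr17:27028578-27028877, minus strand): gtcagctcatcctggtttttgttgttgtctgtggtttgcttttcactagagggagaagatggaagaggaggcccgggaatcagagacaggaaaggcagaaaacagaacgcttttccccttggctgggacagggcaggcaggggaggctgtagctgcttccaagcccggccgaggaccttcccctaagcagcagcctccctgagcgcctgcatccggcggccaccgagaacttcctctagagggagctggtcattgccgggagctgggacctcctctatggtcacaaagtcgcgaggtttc
Bcl2l11 (chr2:128125788-128126087, plus strand): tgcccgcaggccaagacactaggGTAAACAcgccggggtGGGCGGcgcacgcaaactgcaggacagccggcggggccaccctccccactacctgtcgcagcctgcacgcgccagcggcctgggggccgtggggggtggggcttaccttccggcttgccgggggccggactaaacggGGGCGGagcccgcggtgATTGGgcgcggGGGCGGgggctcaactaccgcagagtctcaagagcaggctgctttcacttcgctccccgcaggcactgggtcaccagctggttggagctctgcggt

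The riser Bcl2 held 7 GC boxes in its 300 bases. Among the members that fell, Bid and Bax held 3 each, Mcl1 held 1 and Bak1 held none of the 5 motifs, so the group did not share a motif. Bax was the only printed window with the E box, at 2 places. The Bcl2l11 window had 3 GC boxes, 1 CCAAT box and the only FOXO site among the 16 windows of the 10 members. None of the 16 windows held the cAMP response element.

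Levels in the family spread widely. FPKM is scaled by transcript length, so levels of different genes can be set beside each other. Over the 22 SFEB populations the median level was 141 FPKM for Bax and 102 FPKM for Mcl1, followed by Bak1 at 19.8, Bcl2l1 at 16.1, Bid at 15.04, Bok at 13.04 and Bcl2l11 at 11.2 FPKM. Bad at 5.00 FPKM, Bmf at 4.71 FPKM and Bcl2 at 0.533 FPKM were lowest. The adherent cultures gave the same first 5 and last 3 genes in order, with Bax at 168, Mcl1 at 69.8 and Bcl2 at 0.775 FPKM. In SFEB the range of Bax (92.4 to 254 FPKM) overlapped that of Mcl1 (47.6 to 163 FPKM), Mcl1 did not overlap Bak1, and from Bak1 down to Bmf each gene overlapped the next in the order. Bcl2, from 0.137 to 3.13 FPKM, overlapped only Bmf, whose lowest sample was 2.21 FPKM.

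**Figure D1:**
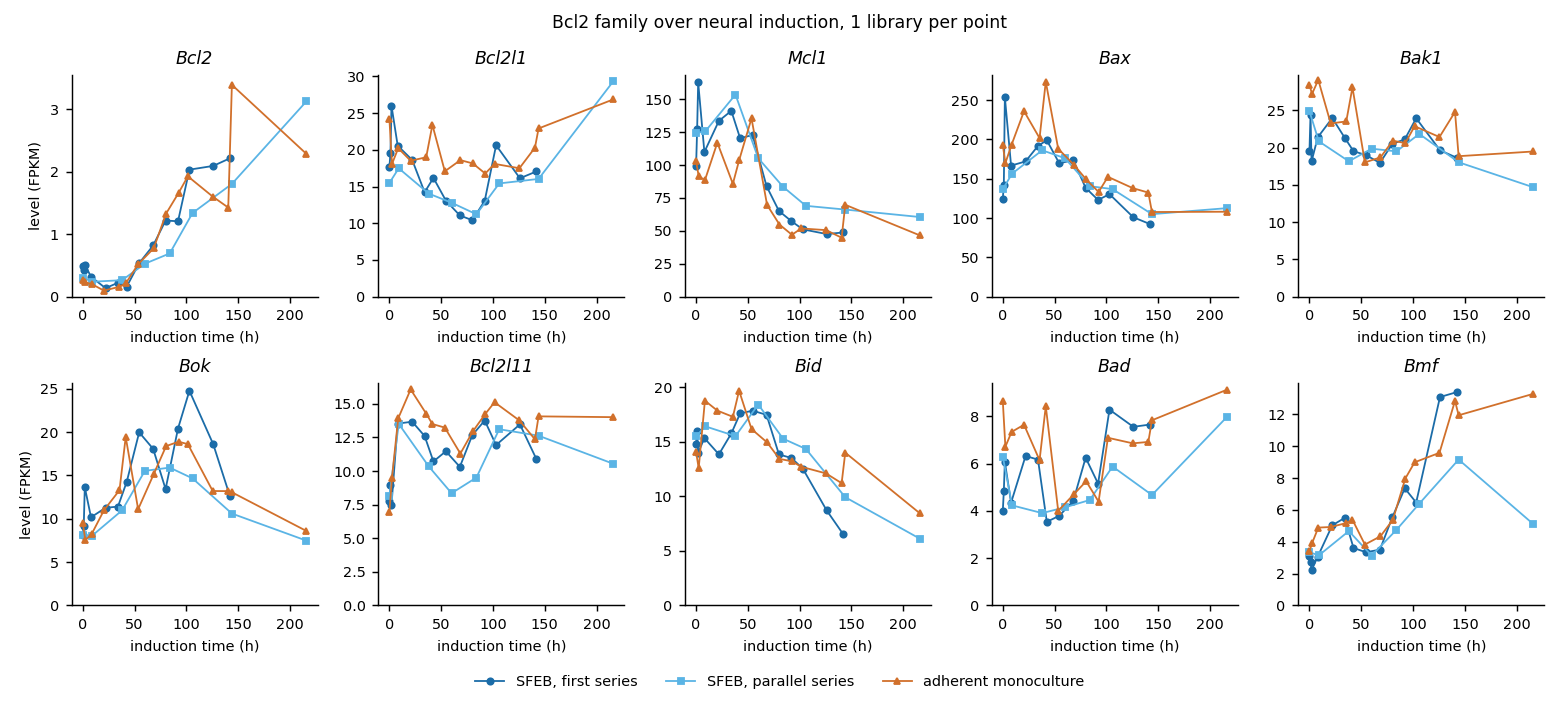
Level in FPKM (vertical axis, from 0) against induction time in hours for each of the 10 genes, with 1 library per point in the first SFEB series, the parallel SFEB series and the adherent monoculture. Bcl2 climbs from below 0.5 to above 2 FPKM in all 3 series, Mcl1 and Bid end below their starting level, and Bok is highest at times between the ends.

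The pro-survival genes went separate ways. Bcl2 (chr1:108434755-108610851, minus strand, mm9) ran from 0.137 FPKM at 22 h through a median of 0.526 to 2.22 FPKM at 142 h in the first series, and from 0.240 FPKM at 9 h to 3.13 FPKM at 216 h in the parallel series. In the adherent cultures it was lowest at 20.5 h with 0.0974 FPKM and highest at 144 h with 3.40 FPKM. The last sample was 4.57, 10.2 and 8.67 times the 0 h sample in the 3 series. The SFEB series share 1 batch correction, which left values below 0 for some genes. At a level this low their ratios may depend on that correction, which was not tested. The slope was +0.88 (SE 0.094) on the log2(FPKM + 1) scale per 100 h in SFEB (limma, adjusted p = 5.9e-08) and +0.93 (SE 0.13) in the adherent cultures (adjusted p = 1.8e-05). That scale understates the change of a gene this low. A processed transcript, D630008O14Rik, overlaps Bcl2 on the other strand, and without strand information their reads cannot be told apart.

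Mcl1 (chr3:95462643-95467099, plus strand, mm9), a short-lived pro-survival protein, was at 99.4 and 124 FPKM at 0 h in the SFEB series and at 103 FPKM in the adherent cultures. It stayed at or above 99.4 FPKM in every SFEB sample up to 60 h and lay between 47.6 and 84.0 FPKM in every one from 68 h on, so the early and late samples did not overlap. The final samples held 48.8, 60.5 and 46.6 FPKM, or 0.491, 0.487 and 0.453 of the 0 h level. The slope was -0.80 (SE 0.12) in SFEB (limma, adjusted p = 5.4e-06) and -0.65 (SE 0.14) in the adherent cultures (adjusted p = 0.00081), again in log2(FPKM + 1) per 100 h. In the first series Mcl1 was highest in the 2 h sample at 163 FPKM, and in the adherent cultures at 53.5 h with 136 FPKM. Bcl2l1 and Bax of the first series were also highest in the 2 h sample.

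Bcl2l1 (chr2:152593052-152657464, minus strand, mm9), which encodes Bcl-xL, dipped and came back. It was 17.7 and 15.5 FPKM at 0 h in the SFEB series, 10.4 FPKM at 80 h and 11.2 FPKM at 84 h, and 17.1 FPKM at 142 h and 29.3 FPKM at 216 h. The adherent samples were lowest at 92.5 h (16.8 FPKM) and highest at 216 h (26.9 FPKM). A straight line did not pass the test in either protocol (slope +0.04, 95% interval -0.23 to 0.31, and +0.09, -0.09 to 0.27). A natural spline with 3 degrees of freedom did, with a fitted 216 h level 0.54 above that of 0 h in SFEB (limma, adjusted p = 0.00012) and 0.39 above in the adherent cultures (adjusted p = 0.043). Without the samples before 22 h the straight SFEB slope was +0.39 (adjusted p = 0.022), but it was -0.28 in the first series alone and -0.21 without the 216 h sample, and -0.042 without that sample in the adherent cultures, none of which passed. The late high end in SFEB is that 1 sample, since the 144 h sample held 16.04 FPKM. The first series also held 26.0 FPKM at 2 h, its highest, and 20.6 FPKM at 103 h.

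Of the effectors, Bax and Bak1 had downward slopes, though Bax was also higher midway than at 0 h, and Bok peaked midway. Bax (chr7:52717065-52722268, minus strand, mm9) was 124 FPKM at 0 h and 254 FPKM at 2 h in the first series. There it held 199 FPKM at 42.5 h and was lowest at 142 h with 92.4 FPKM (median 155 FPKM). The parallel series (median 139 FPKM) held 137 FPKM at 0 h, 186 FPKM at 38 h and 105 FPKM at 144 h. In the adherent cultures Bax went from 193 FPKM at 0 h to 273 FPKM at 41.5 h and 108 FPKM at 144 h. Its slope was -0.40 (SE 0.099, adjusted p = 0.0012) in SFEB and -0.51 (SE 0.093, adjusted p = 0.00021) in the adherent cultures by limma. In the parallel series alone the SFEB call was lost (-0.28, adjusted p = 0.056). The adherent cultures had no such early peak, since their 2.5 h sample held 170 FPKM, below their 0 h sample at 193 FPKM. The 2 h library also held the highest Mcl1 (163 FPKM) and Bcl2l1 (26.0 FPKM) of the first series.

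Bak1 (chr17:27156755-27165954, minus strand, mm9) varied least of the 10 in SFEB, and in the adherent cultures its highest sample was 1.61 times its lowest, next to 1.60 for Bcl2l1. It lay between 14.7 and 24.9 FPKM over the 22 SFEB samples and between 18.0 and 29.1 FPKM over the 15 adherent ones. Its small slopes passed the test in SFEB (-0.16, SE 0.060, limma adjusted p = 0.025) and in the adherent cultures (-0.21, SE 0.083, adjusted p = 0.035). The call was lost without the 216 h sample (-0.09, adjusted p = 0.27, in SFEB and -0.25, adjusted p = 0.053, in the adherent cultures), and the adherent call also without the samples before 20.5 h (-0.10, adjusted p = 0.42). Bak1 overlaps Ggnbp1 on the other strand.

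Bok (chr1:95582271-95592339, plus strand, mm9), an effector related to Bax and Bak1, was 8.08 and 8.10 FPKM at 0 h in SFEB, 24.8 FPKM at 103 h in the first series, 15.9 FPKM at 84 h in the parallel series and 7.47 FPKM at 216 h. In the adherent cultures it was 7.55 FPKM at 2.5 h, 19.4 FPKM at 41.5 h, 11.1 FPKM at 53.5 h, 15.1 FPKM at 68.5 h, 18.6 FPKM at 101.5 h and 8.59 FPKM at 216 h. The levels at 0 and 216 h were alike and most samples between were higher, with a low adherent sample at 53.5 h. A straight line therefore did not pass (+0.18, 95% interval -0.15 to 0.52, and +0.13, -0.24 to 0.49), while the spline passed in SFEB (limma, adjusted p = 3.2e-05) and in the adherent cultures (adjusted p = 0.00077). The first series alone gave +0.61 (adjusted p = 0.013), and without the 216 h sample the slope was +0.52 in SFEB (adjusted p = 0.0082) and +0.45 in the adherent cultures (adjusted p = 0.047). The sign turned in the parallel series alone (-0.021) and without the samples before 22 h (-0.21) in SFEB, and without those before 20.5 h (-0.23) or with quantile normalization (-0.057) in the adherent cultures, none of which passed.

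The BH3-only genes differed from each other. Bid (chr6:120841948-120866871, minus strand, mm9), which caspase-8 cleaves to link death receptors to mitochondria, was 14.8 and 15.5 FPKM at 0 h in SFEB, at most 18.4 FPKM at 60 h, and 6.53 FPKM at 142 h and 6.12 FPKM at 216 h. Its slope was -0.54 (SE 0.095, limma adjusted p = 3.5e-05) in SFEB and -0.36 (SE 0.090, adjusted p = 0.0025) in the adherent cultures, where it ended at 8.44 FPKM. Bid overlaps Bcl2l13 on the other strand, and Bcl2l13 moved the other way (+0.62 in SFEB).

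Bmf (chr2:118354493-118375423, minus strand, mm9), a sensor tied to the cytoskeleton, was at or below 5.53 FPKM in every SFEB sample up to 84 h and reached 13.4 FPKM at 142 h. In the parallel series it reached 9.16 FPKM at 144 h and was 5.11 FPKM at 216 h, whereas the adherent culture of 216 h held 13.3 FPKM, its highest. The slope was +0.73 (SE 0.15, limma adjusted p = 0.00023) in SFEB and +0.86 (SE 0.11, adjusted p = 7.7e-06) in the adherent cultures. The parallel series alone gave +0.41 (adjusted p = 0.086) and the first series alone +1.25.

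Bad (chr19:7016351-7026388, plus strand, mm9), which growth factor kinases hold inactive, lay between 3.54 and 8.29 FPKM in SFEB and between 4.00 and 9.12 FPKM in the adherent cultures. Its slope passed in SFEB (+0.28, SE 0.11, limma adjusted p = 0.029) but not in the adherent cultures (+0.06, 95% interval -0.22 to 0.35, although the spline gave adjusted p = 0.049), and the SFEB call was lost without the 216 h sample (+0.25, adjusted p = 0.12). The difference between the protocols was not tested. Gpr137 overlaps Bad on the other strand.

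Bcl2l11 (chr2:127951774-127988283, plus strand, mm9), the gene of Bim, moved in the first hours. It was 7.74 FPKM at 0 h and 13.5 FPKM at 8 h in the first series, 8.16 and 13.5 FPKM at 0 and 9 h in the parallel series, and 6.96 and 13.9 FPKM at 0 and 8.5 h in the adherent cultures. The ratios were 1.75, 1.66 and 2.00. Among the members it was the only one at least 1.5-fold higher in all 3 series, as were 0.903% of the 11515 genes that could be compared, and no member was at least 1.5-fold lower in all 3 (1.97% of genes). That fold limit was chosen after the values were seen, and with 1 library per time there is no test. The first series still held 8.97 and 7.48 FPKM at 1 and 2 h, and later samples of all 3 series lay between 8.35 and 16.1 FPKM. The slopes did not pass (+0.14, 95% interval -0.05 to 0.34, and +0.17, -0.07 to 0.41). This step fell in the hours in which the fibroblast marker sum went from 835 to 377, from 896 to 390 and from 346 to 263 FPKM.

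**Figure D2:**
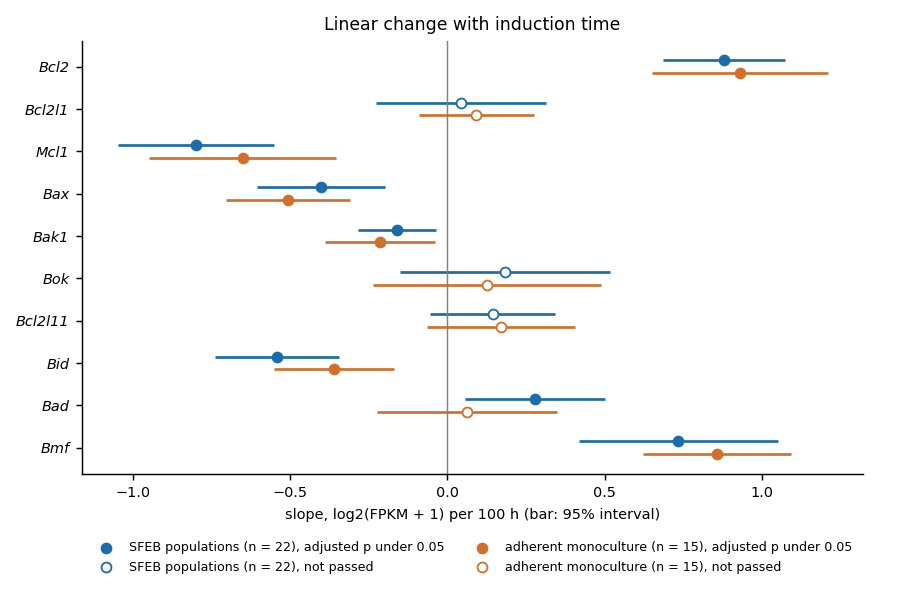
Slope of each gene in log2(FPKM + 1) per 100 h (horizontal axis) with its 95% interval in the 22 SFEB populations and the 15 adherent cultures, where filled points passed an adjusted p of 0.05. Bcl2 and Bmf lie right of 0 and Mcl1, Bax, Bak1 and Bid left of it in both protocols.

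In count, 7 of the 10 genes changed with time in SFEB, 3 upward and 4 downward, where 62.3% of all 13115 genes tested passed (35.1% upward, 27.2% downward). In the adherent cultures 6 of 10 changed, 2 upward and 4 downward, where 59.7% of 13258 genes passed (35.9% upward, 23.8% downward). These shares are near the background, so the counts say nothing particular to the family. The median slope of the 10 was +0.09 in SFEB and +0.08 in the adherent cultures, against +0.04 and +0.09 over all genes. With the spline, 9 of 10 passed in each protocol, against 87.3% and 70.5% of genes. In the parallel series alone 3 of 10 passed, namely Bcl2, Mcl1 and Bid, against 44.6% of genes, and in the first series alone 7 of 10 passed, against 53.9%. Without the samples before 22 h, in which fibroblast markers were high, Bcl2 (+1.09), Bmf (+0.58), Bad (+0.38), Mcl1 (-0.89), Bid (-0.77), Bax (-0.59) and Bak1 (-0.18) still passed in SFEB, with Bcl2l1 added (68.1% of genes). Without those before 20.5 h, 5 of 10 passed in the adherent cultures (52.5% of genes). Quantile normalization of the adherent table turned the calls over all genes from 4759 upward and 3155 downward to 3719 and 4037 and moved the median slope of all genes by -0.11, and the same 6 genes of the family kept their calls and directions.

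Summing FPKM within a class showed how little of the pro-survival message was Bcl2. Mcl1 made up 91.5% of the sum of Bcl2, Bcl2l1 and Mcl1 at 38 h in SFEB and 65.1% at 216 h, and between 88.5% and 61.5% in the adherent cultures. Bcl2 reached at most 3.37% in SFEB and 3.53% in the adherent cultures, although its own level multiplied, and Bcl2l1 supplied the rest, up to 31.5% and 35.5%. The summed pro-survival level divided by that of the effectors Bax, Bak1 and Bok was highest at 1 h (0.836) and lowest at 103 h (0.412) in SFEB. In the adherent cultures it was highest at 53.5 h (0.705) and lowest at 101.5 h (0.371). Sums of message say nothing of protein, and no test was run on these ratios.

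**Figure D3:**
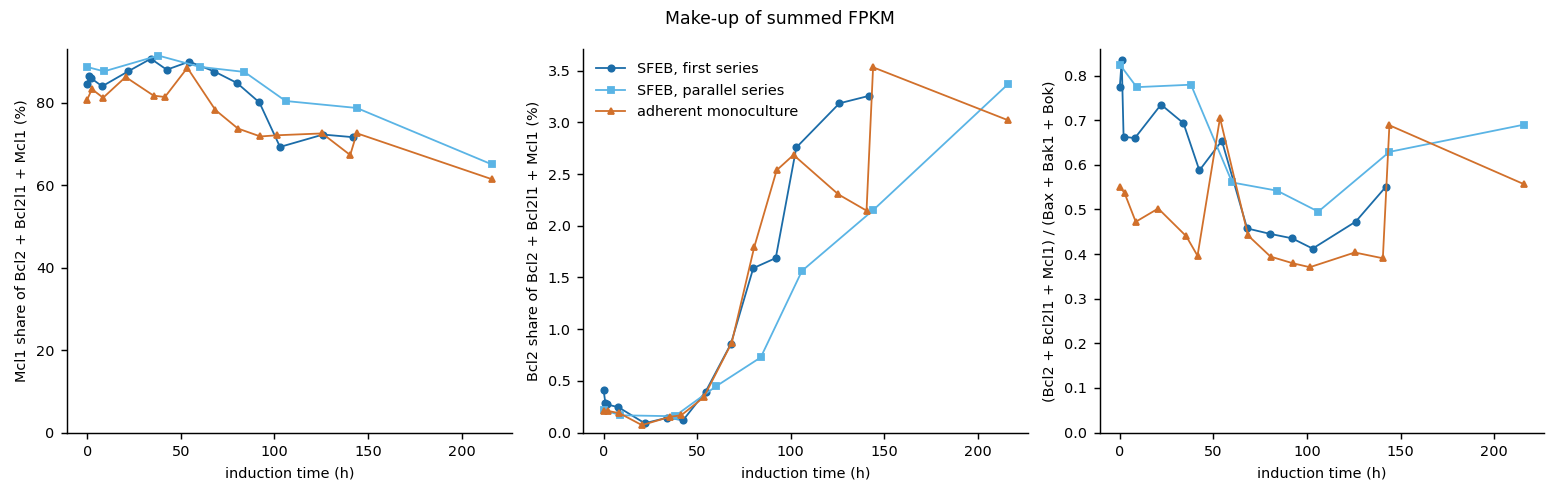
Share of Mcl1 and of Bcl2 in the summed FPKM of Bcl2, Bcl2l1 and Mcl1 in percent, and the ratio of that sum to the sum of Bax, Bak1 and Bok, against induction time in hours with 1 library per point. Mcl1 keeps at least 61.5% of the sum in every sample, Bcl2 stays below 3.6%, and the ratio is lowest near 100 h in the first SFEB series and in the adherent cultures.

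Some members moved together over time. As a description over samples that share the time axis, log2(FPKM + 1) of Bcl2 and Mcl1 correlated at r = -0.906 over the 22 SFEB populations and -0.778 over the 15 adherent cultures, Mcl1 and Bax at 0.826 and 0.780, Bax and Bid at 0.720 and 0.827, and Bcl2 and Bmf at 0.705 and 0.838. Bcl2l1 and Mcl1 correlated at 0.065 and 0.002. Of 13105 genes compared, those most like Bcl2 over the 22 SFEB populations were Zfp768 (r = 0.981), Mmp15 (0.980) and Dbn1 (0.980), the last encoding the actin-binding protein drebrin of neurons, with r of 0.952, 0.869 and 0.913 in the adherent cultures. Bid was closest to Ehd4 (0.977), Mthfd1 (0.965) and Gart (0.954), of which Mthfd1 and Gart encode enzymes of folate and purine metabolism, and kept r of 0.772 to 0.794 with the 3 in the adherent cultures. Bax was closest to Yrdc (0.949, and 0.930 in the adherent cultures) and Bmf to 2610318N02Rik (0.937 and 0.872). The 3 genes closest to Bcl2l11, namely Cxxc1 (0.841), Stk11ip (0.813) and Shroom3 (0.805), had r of -0.07, 0.17 and 0.58 in the adherent cultures.

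In the E14 line the 4-day response was measured with replicates. The knockout was checked first. Fyn, a Src family kinase, was 0.598, 0.598 and 1.10 FPKM in the Fyn KO at day 0 against 3.21, 2.74 and 4.00 FPKM in WT, and 1.19, 1.13 and 1.58 FPKM at day 4 against 9.44, 4.54 and 6.76 FPKM. Every Fyn KO sample lay below every WT sample of its day. The difference was -1.29 on the log2(FPKM + 1) scale at day 0 (SE 0.24, limma adjusted p = 0.060) and -1.74 at day 4 (SE 0.24, adjusted p = 0.019). Of the 10 members, 9 passed the filter of 1 FPKM in at least 3 of the 12 samples, and Bcl2 did not.

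**Figure D4:**
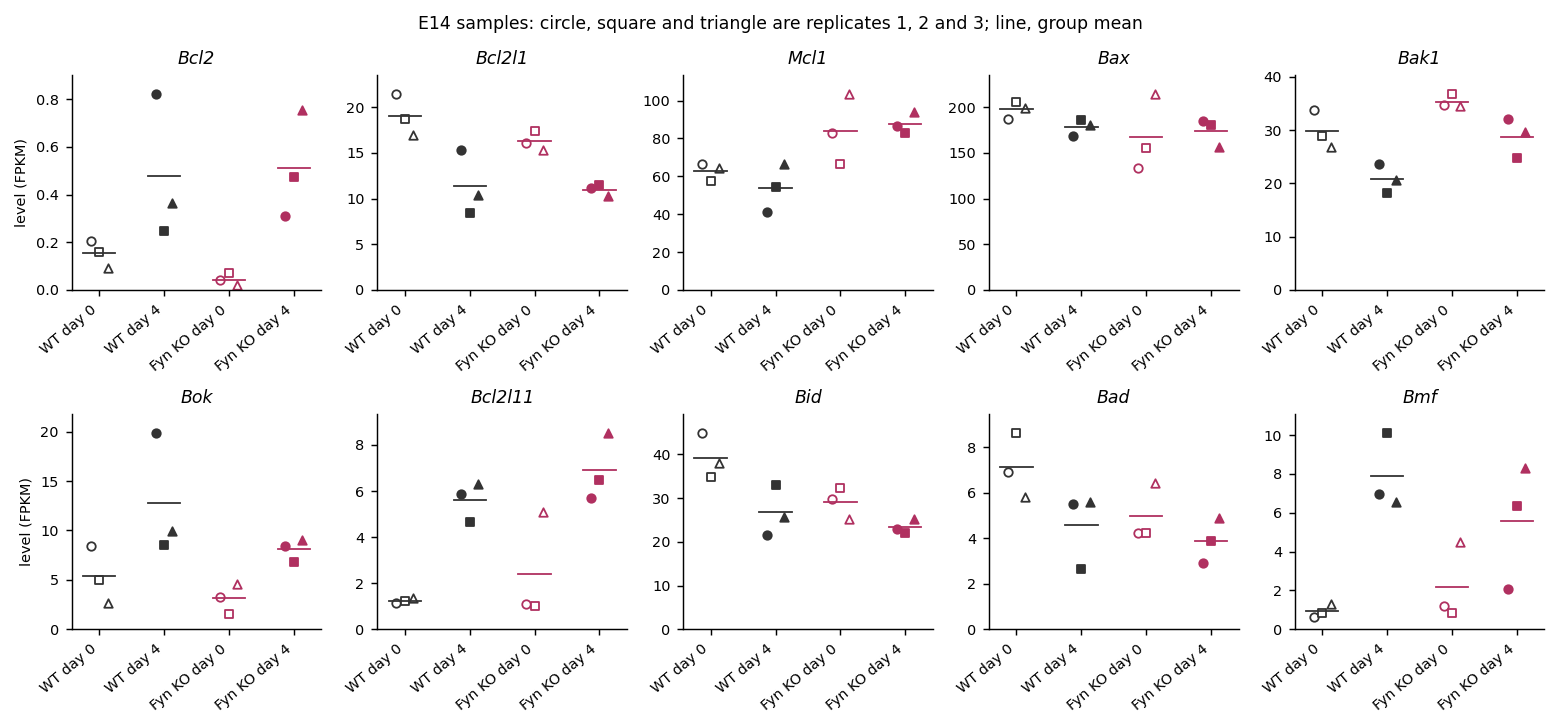
Level in FPKM (vertical axis, from 0) of each gene in the 12 E14 samples by genotype and day, where symbols mark replicates 1 to 3 and the line is the group mean. Bcl2l11 is below 1.4 FPKM in 5 of the 6 day 0 samples and above 4.6 FPKM in all day 4 samples, and Mcl1 at day 4 is higher in each Fyn KO sample than in each WT sample.

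In WT cells the BH3-only genes Bmf and Bcl2l11 rose from day 0 to day 4. Bmf went from 0.647, 0.834 and 1.28 FPKM to 6.94, 10.1 and 6.57 FPKM, a difference of +2.20 on the log2(FPKM + 1) scale (SE 0.45, limma adjusted p = 0.0054). Bcl2l11 went from 1.16, 1.21 and 1.35 FPKM to 5.88, 4.66 and 6.32 FPKM (+1.56, SE 0.35, adjusted p = 0.0088). Neither gene's groups overlapped.

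Bcl2l1, Bid and Bak1 fell in WT. Bcl2l1 went from 21.4, 18.7 and 17.01 FPKM to 15.3, 8.44 and 10.4 FPKM (-0.73, SE 0.18, limma adjusted p = 0.015). Bid went from 44.8, 34.8 and 37.9 FPKM to 21.5, 32.9 and 25.7 FPKM (-0.55, SE 0.17, adjusted p = 0.031), and Bak1 from 33.8, 28.9 and 26.9 FPKM to 23.6, 18.2 and 20.7 FPKM (-0.50, SE 0.14, adjusted p = 0.024). None of the 3 overlapped between the days. Leaving out 1 of the 12 libraries at a time, Bmf, Bcl2l11 and Bcl2l1 kept their calls each time. Bak1 lost its call without WT day 0 replicate 1 or 2 or WT day 4 replicate 2 or 3 (adjusted p up to 0.078), and Bid without WT day 0 replicate 1 or 3 or WT day 4 replicate 1 or 3 (up to 0.11).

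The other members did not pass in WT. Bok went from 8.46, 5.00 and 2.63 FPKM to 19.8, 8.53 and 9.95 FPKM, with no overlap (+1.13, 95% interval 0.27 to 2.00, limma adjusted p = 0.054), and it passed once replicate numbers entered the fit as a block (adjusted p = 0.032, where 29.1% of genes passed) and in 4 of the 12 fits without 1 library (adjusted p from 0.024). Mcl1 (57.5 to 66.4 FPKM at day 0, 41.1 to 66.3 FPKM at day 4) gave -0.24 (95% interval -0.64 to 0.17), Bax -0.15 (-0.48 to 0.19) and Bad -0.57 (-1.15 to 0.0026), whose call came with quantile normalization (adjusted p = 0.048). Bcl2, below the filter, was 0.206, 0.161 and 0.0936 FPKM at day 0 and 0.822, 0.248 and 0.365 FPKM at day 4. So 5 of 9 members passed in WT, where 25.8% of the 12257 genes tested did, 15.5% upward and 10.3% downward. Of the 9, 3 were higher and 5 lower at day 4 without overlap, against 25.8% and 16.4% of genes.

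In the Fyn KO, Bcl2l11 was the member that passed. It was 1.09, 1.03 and 5.09 FPKM at day 0 and 5.72, 6.46 and 8.50 FPKM at day 4 (+1.40, SE 0.35, limma adjusted p = 0.018), and the third day 0 library held nearly as much as the day 4 libraries. That library, replicate 3, also held Bmf at 4.51 FPKM against 1.18 and 0.810 FPKM in the other day 0 libraries, and it had the highest summed neuron (207 FPKM) and neural progenitor (307 FPKM) markers and the lowest naive markers (1116 FPKM) of the Fyn KO at day 0. Without it, Bcl2l11 gave +1.92 (adjusted p = 0.00015) and Bmf, with 2.08, 6.35 and 8.31 FPKM at day 4, went from +1.09 (adjusted p = 0.11) to +1.58 (adjusted p = 0.015). Bmf passed as well without Fyn KO day 4 replicate 1 (+1.57, adjusted p = 0.031). The Bcl2l11 call was lost without Fyn KO day 0 replicate 1 (+1.15), replicate 2 (+1.13) or day 4 replicate 3 (+1.26).

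Bok in the Fyn KO was 3.29, 1.50 and 4.62 FPKM at day 0 and 8.40, 6.78 and 9.05 FPKM at day 4 (+1.20, 95% interval 0.34 to 2.07, limma adjusted p = 0.053). Bcl2l1 was 15.3 to 17.4 FPKM at day 0 and 10.2 to 11.5 FPKM at day 4 (-0.53, 95% interval -0.93 to -0.12, adjusted p = 0.067). Neither overlapped between days and neither passed. Bok did pass with the replicate block (adjusted p = 0.031), with a pseudocount of 0.1 (0.049) and in 4 of the 12 fits without 1 library, by limma down to an adjusted p of 0.027 without Fyn KO day 0 replicate 3, and Bcl2l1 passed without WT day 4 replicate 1 (0.023) or 2 (0.042). Bcl2 was 0.0424, 0.0690 and 0.0189 FPKM at day 0 and 0.308, 0.474 and 0.756 FPKM at day 4, and with no filter it passed (+0.53, limma adjusted p = 0.036, where 11.8% of 18841 genes passed), as it did not in WT (+0.34, adjusted p = 0.12). For the difference of the response between genotypes with no filter, 0 of the 10 members passed, Bcl2 included, and 1 of 18841 genes. In all, 1 of 9 members passed in the Fyn KO, where 19.3% of genes did, and 2 were higher and 2 lower at day 4 without overlap, against 21.9% and 16.8% of genes.

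No member differed between Fyn KO and WT by the test, at day 0 (0 of 9, and 0.171% of genes) or at day 4 (0 of 9, and 0.0734% of genes). By unadjusted p under 0.05, which 14.6% and 12.1% of genes had, the members were Bid at day 0 (-0.42, adjusted p = 0.28) and Mcl1 and Bak1 at day 4. Mcl1 at day 4 was 86.4, 82.9 and 94.1 FPKM in the Fyn KO and 41.1, 54.6 and 66.3 FPKM in WT (+0.72, 95% interval 0.31 to 1.12, limma adjusted p = 0.16). Bak1 at day 4 was 32.0, 24.7 and 29.6 FPKM in the Fyn KO and 23.6, 18.2 and 20.7 FPKM in WT (+0.45, 95% interval 0.14 to 0.75, adjusted p = 0.24). Both genes were higher in 3 of 3 Fyn KO samples without overlap, as were 6.54% of genes. At day 0 Bak1 was also higher (34.4 to 36.8 against 26.9 to 33.8 FPKM) and Bid lower (25.2 to 32.2 against 34.8 to 44.8 FPKM) without overlap, as were 10.5% and 10.9% of genes. The day 4 response itself did not differ between the genotypes for any member (0 of 9, and 0% of genes, with 4.38% at an unadjusted p under 0.05), and the widest gap was that of Bmf (-1.11, 95% interval -2.50 to 0.28). The intervals of the response are wide, so a 2-fold difference of the response cannot be set aside for Bmf, Bok, Bcl2l11 or Bad.

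The summed ratio of pro-survival genes to effectors was 0.319 to 0.384 in WT at day 0 and 0.269 to 0.366 at day 4, against 0.432 to 0.577 and 0.435 to 0.537 in the Fyn KO. Every Fyn KO sample had a higher ratio than every WT sample. This is a description of 1 clone, with no test.

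Single cells showed how unevenly the family was spread. Their values were deposited as log10(RPKM + 1), and a cell was counted for a gene above 1 RPKM (reads per kilobase, scaled to the mapped reads). Of the 64 cells, Mcl1 was above that level in 62, Bax in 58, Bok in 54, Bid in 43, Bcl2l1 in 37, Bad in 25, Bcl2l11 and Bmf in 10 each, and Bak1 in 4. At least 1 effector was present in 63 of 64 cells, and Bcl2l1 or Mcl1 in 63, both of them in 36. No BH3-only member was above 1 RPKM in 7 cells, of which 3 were at 216 h and 2 at 144 h. The median number of genes above 0 per cell ran from 6145 at 144 h to 8972 at 0 h, and its part in these counts was not tested.

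**Figure D5:**
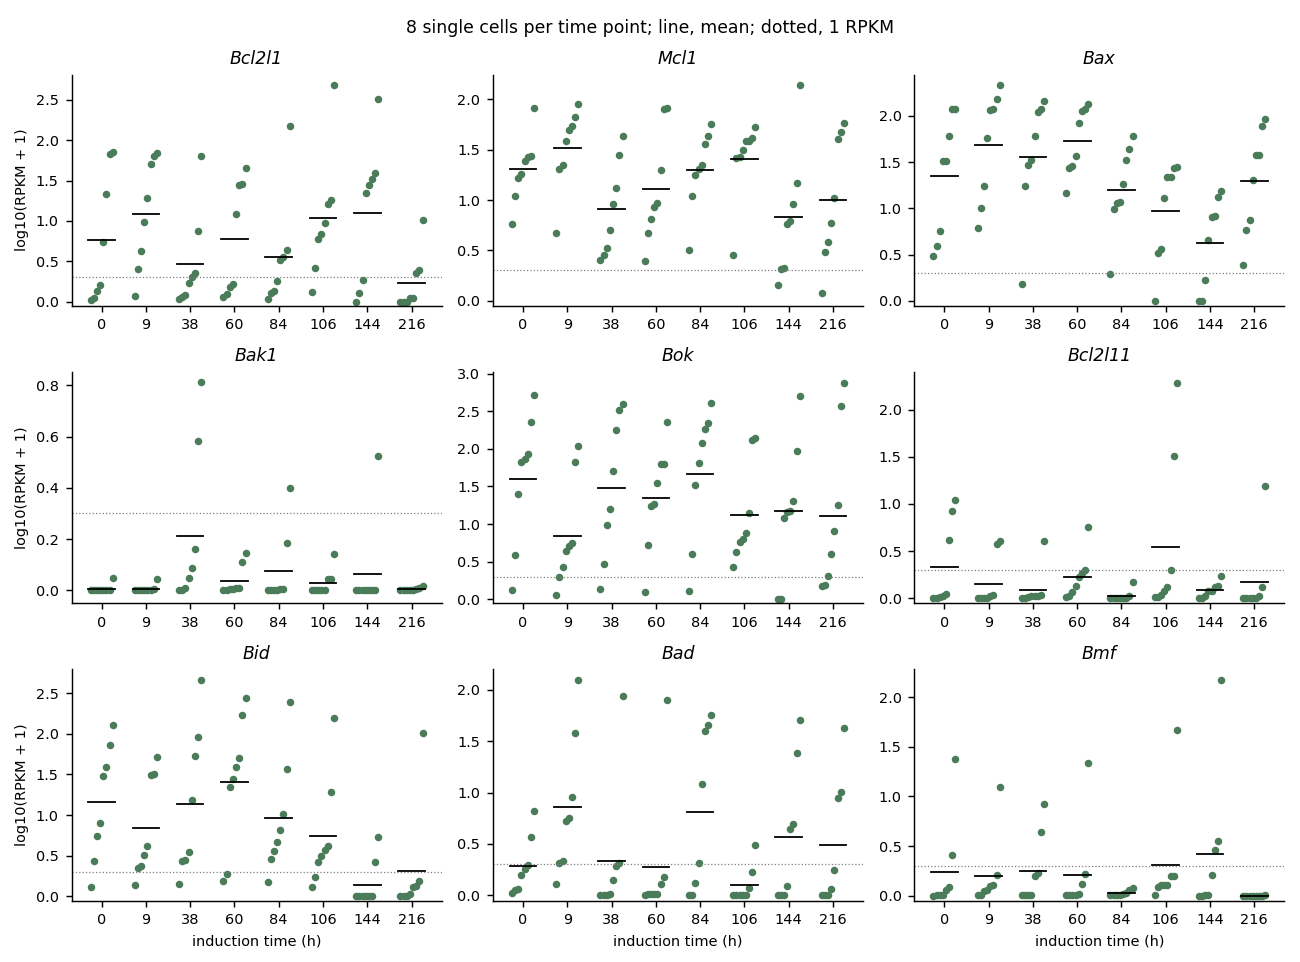
log10(RPKM + 1) of 9 genes in each of 64 cells (points) by induction time in hours, with the mean of the 8 cells (line) and the level of 1 RPKM (dotted). Mcl1 and Bax are above the dotted line in most cells, Bak1 in 4, and Bid in 2 and 1 of 8 cells at 144 and 216 h.

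Bak1 and Bok stood at opposite ends, although Bak1 had the higher mean population level. In the parallel populations Bak1 averaged 19.7 FPKM and Bok 11.4 FPKM. Bak1 was above 1 RPKM in 4 cells, while the 4512 genes of similar population level had a median of 29 cells, and 1.48% of them were found in as few. Bok was above 1 RPKM in 54 cells, against a median of 19 cells for 4714 similar genes, of which 1.40% were found in as many. Its cells ranged up to 752 RPKM. Population and single-cell tables were normalized separately, so only the ranks can be set side by side, and a transcript absent from a cell may have been present and not captured. The similar genes were only those kept in the single-cell data, from which the authors discarded genes detected in too few cells. Rarely detected genes may thus be missing, which would raise these medians and lower the Bak1 share.

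Bid was found in few of the late cells. It was above 1 RPKM in 7, 7, 7, 6, 7, 6, 2 and 1 of the 8 cells at 0, 9, 38, 60, 84, 106, 144 and 216 h. The 5 cells of 144 h in which Bid was at 0 were also those with the fewest genes above 0 of all 64, between 5648 and 6193, and the part of this in the count was not tested. The higher Bid cell of 144 h, numbered 16 as well, had a naive pluripotency sum of 828 RPKM, the highest of that time, and a neural progenitor sum of 55.3 RPKM, the lowest. The lone Bid cell of 216 h, cell 16 of that time, held 2.01 on the log10 scale, when the other 7 were at 0.19 or below, and it was the source of 98.7% of the summed RPKM of that time. That cell stood apart in its markers too, with a summed naive pluripotency level of 694 RPKM against 2.49 to 22.2 RPKM in the other 7 cells and a neural progenitor sum of 16.8 RPKM against 1003 to 8706 RPKM. The mean of the 8 cells correlated with time at r = -0.77 (exact permutation test over all orders of the 8 times, two-sided, p = 0.027, adjusted p = 0.29) and Spearman's rho = -0.74 (exact permutation p = 0.046), which does not pass over all genes. Without the 144 and 216 h times r was weaker, at -0.29. Without 0 and 216 h, an early and a late time, r was -0.67. Without that 216 h cell it was -0.82 (exact permutation p = 0.012, adjusted p = 0.20).

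The other members showed no relation with time that passed. Bax means gave r = -0.55 (exact permutation p = 0.16) and Mcl1 means r = -0.49 (exact permutation p = 0.22), with Bax at r = -0.62 without 144 and 216 h and -0.93 without 0 and 216 h, and lowest at 144 h (0.63 on the log10 scale, SD 0.49 over 8 cells). Adjusted over all genes, 0 of 9 members and 0% of the 11449 genes passed, while 14.3% had an unadjusted p under 0.05. Bmf, which rose in the populations, was above 1 RPKM in 3 of 8 cells at 144 h and in 0 of 8 at 216 h, where the population held 5.11 FPKM. The highest Bmf cell, at 144 h, held 148 RPKM. Bcl2l11 was above 1 RPKM in 3 cells at 0 h and in 2 at 9 h, and its highest cell, at 106 h with 191 RPKM, held 68.4% of the Bcl2l11 RPKM summed over the 64 cells.

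The rest of the pathway was read from lists fixed with earlier results known. The counts below stand beside the shares over all genes, which were 35.1% upward and 27.2% downward in SFEB, 35.9% and 23.8% in the adherent cultures, 15.5% and 10.3% in E14 WT and 11.8% and 7.56% in the Fyn KO, and nothing particular to a list is read from them. Caspases, the proteases switched on once cytochrome c is let out, had 6 of 10 listed genes tested. In SFEB 4 rose and none fell, among them Casp6 (+0.83, limma adjusted p = 7.6e-07), and in the adherent cultures again 4 rose and none fell, with Casp6 at +1.07 (adjusted p = 1.1e-06). That is 4 of 6, where 62.3% and 59.7% of all genes changed. In E14 1 rose by day 4 in WT, and 2 rose in the Fyn KO, where Casp6 gave +0.85 (adjusted p = 0.047). The median caspase slope was +0.52 in SFEB and +0.56 in the adherent cultures, against +0.04 and +0.09 over all genes.

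Among other relatives, Bcl2l2 (Bcl-w), the 1 of 6 further pro-survival genes that was tested, rose in SFEB (+0.49, limma adjusted p = 0.00064) and in the adherent cultures (+0.49, adjusted p = 0.0011). Of 11 further BH3-bearing genes, 9 were tested in SFEB and 4 rose and 3 fell, where 62.3% of all genes changed. Pmaip1 (Noxa), the sensor that targets Mcl1, fell in SFEB (-1.10, adjusted p = 8.2e-05) but rose in E14 by day 4, by +1.47 in WT (adjusted p = 0.033) and +2.52 in the Fyn KO (adjusted p = 0.0039). Bcl2l13 rose in SFEB (+0.62) and in the adherent cultures (+0.67). The adherent cultures had 5 up and 2 down of 10 tested, led by the mitophagy receptor Bnip3 (+1.05). E14 WT had 3 up and 1 down of 9, the latter Bcl2l14 (-2.10, adjusted p = 0.018), and the Fyn KO 4 up of 9, with Bik at +1.29 (adjusted p = 0.016). Mitochondrial factors and the apoptosome split 4 up and 3 down of 10 in SFEB, where the membrane channel gene Vdac3 rose (+0.44), and 2 up and 1 down in the adherent cultures, where Endog fell (-0.70, and -0.79 in SFEB) and the caspase-9 scaffold Apaf1 rose (+0.48). In E14 1 rose and 1 fell in WT, Diablo (+0.42) and Vdac1 (-0.83), and 2 fell in the Fyn KO, Vdac1 (-0.69) and the protease gene Htra2 (-0.75).

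Of 8 inhibitor of apoptosis genes 5 were tested. Birc5 (survivin), which also serves cell division, fell in SFEB (-0.37), in the adherent cultures (-0.36), in E14 WT (-0.52) and in the Fyn KO (-0.66), with an adjusted p of at most 0.015 by limma. Birc3 fell in SFEB (-0.66) and in the adherent cultures (-0.53). The 14 listed controllers of the family's turnover and transcription had 13 tested, of which 5 fell and none rose in SFEB, 4 fell and none rose in the adherent cultures, 6 fell and 1 rose in E14 WT, and 6 fell and none rose in the Fyn KO, where 27.2%, 23.8%, 10.3% and 7.56% of all genes fell. The transcription factor gene Mitf fell in SFEB (-0.89), in E14 WT (-2.57) and in the Fyn KO (-2.30), Stat3 fell in E14 WT (-1.96) and Atf5 in the Fyn KO (-2.21) and in the adherent cultures (-0.75), with an adjusted p of at most 0.017 by limma. Trp53, whose protein p53 drives Bax and Pmaip1, fell in SFEB (-0.77, adjusted p = 1.1e-05) and in the adherent cultures (-1.01, adjusted p = 2.4e-06). The median of the controllers was -0.29 and -0.27 in the time series, against +0.04 and +0.09 over all genes. Between Fyn KO and WT no gene of any of these lists passed at either day, nor for the difference of the response.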

How the data were processed

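RNA-seq was measured in 22 SFEB populations, 15 adherent cultures, 12 E14 samples and 64 single cells. Per the labels, the authors aligned reads with TopHat2 2.0.8b and quantified genes with Cufflinks 2.1.1, against mm9 for R1 cells and mm10 for E14; the paper's methods name other versions. The authors deposited FPKM for the adherent and E14 samples. The authors also deposited batch-corrected FPKM (ComBat, batches not named) for the SFEB populations, where 1256 values below 0 were set to 0. For single cells the authors quantile-normalized RPKM across cells, discarded genes detected in too few of them and deposited log10(RPKM + 1). Whether counting used strand is not given in the sources used here. The study states a minimum depth for the single cells and the parallel series, but the depth of each library is unknown here, so no counting interval is given.

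Groups came from the labels; the first 0 h population, which lacks a sample-type label, was placed by its title. The members and gene lists were chosen with earlier results of these data known. limma 3.58.1 (R 4.3.3) was fitted to log2(FPKM + 1) over all genes past a filter with trended variance and Benjamini-Hochberg adjustment at 0.05. A fold change on that scale understates the change of low genes. The E14 fit had 4 group means over 12 samples (at least 1 FPKM in 3 samples). The time fits were straight lines in hours (above 0.5 FPKM in 8 SFEB or 5 adherent samples), and the spline had 3 degrees of freedom. Single cells were averaged over the 8 cells of a time, and Pearson's r with time was tested by an exact two-sided permutation of the 8 times, since cells are not replicates. The scripts were tested on simulated data.

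All 10 members are named; from each pathway list, up to 2 genes with the largest change past the threshold are named per comparison, except 1 gene that is not reported here. The 3 genes most like each member were taken by Pearson's r. Gene positions are from GENCODE on mm9. Same-numbered E14 libraries deviated together in WT between days (r of 0.199, 0.220 and 0.224) and at day 4 between genotypes (0.136, 0.258 and 0.240), so the fit with the replicate number as a block is given where it changes a call. Alternatives were another pseudocount (0.1), no filter, quantile normalization, the block, no variance trend, each E14 library left out, each SFEB series alone, and no 216 h sample; fits without the early hours were added after seeing the data.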

Additional observations from a re-analysis of the deposited data

How the results depend on the processing

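The calls of Bcl2, Mcl1 and Bid with time in SFEB, and of Bcl2, Mcl1, Bax, Bid and Bmf in the adherent cultures, held under every alternative run for them; losses and gains of the other calls are given with the genes, except that Bad (0.21) and Bak1 (0.052) also lost theirs in the parallel series alone, as did Bak1 in the first (0.64), all as adjusted p. The cause of a change was not tested. Over all genes, the number that differed between Fyn KO and WT at day 0 was 21, but 35 with no filter and 38 with the replicate block; at day 4 it was 9, but 24 with no filter and 17 with quantile normalization. The difference of the day 4 response gave 0 genes by limma (537 at an unadjusted p under 0.05), 1 with no filter and 2 with the block. No member passed in these under any of them. Leaving out 1 library at a time, the counts ran from 1831 to 3528 for WT day 4 against day 0 (1831 without WT day 0 replicate 2 and 1991 without replicate 3, against 3166) and from 1041 to 3063 for the Fyn KO (1041 without day 0 replicate 2, 1281 without replicate 1 and 1150 without day 4 replicate 3, against 2370). They ran from 4 to 128 for Fyn KO against WT at day 0 (128 without WT day 0 replicate 1), from 5 to 14 at day 4, and from 0 to 4 for the difference of the response.

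Same-numbered libraries deviated together less in the Fyn KO between days (r of 0.0239, 0.0899 and 0.0011) and unevenly at day 0 between genotypes (0.0628, 0.339 and -0.115). Whether these share more than a number was not tested. With the replicate block, 2779 genes and 2 of 9 members passed in the Fyn KO, Bok joining Bcl2l11 (adjusted p = 0.031). Beside Bok in both genotypes, the block changed no call of a member.

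Values that changed sign were, apart from Bok with the SFEB spline, of genes not passed there. In SFEB, Bcl2l1 was -0.28 in the first series alone and -0.21 without 216 h, and Bok was -0.36 with the spline, -0.021 in the parallel series alone and -0.21 without the samples before 22 h. In the adherent cultures, Bcl2l1 was -0.042 without 216 h, Bok -0.057 with quantile normalization and -0.23 without the samples before 20.5 h, Bcl2l11 -0.024 without the samples before 20.5 h, and Bad -0.17 with quantile normalization and -0.088 without 216 h. In E14, leaving out 1 library at a time, the Fyn KO difference between days ran from -0.076 to 0.24 for Mcl1 and from -0.074 to 0.27 for Bax, and Fyn KO against WT from -0.12 to 0.67 for Bcl2l11 at day 0 and, at day 4, from -0.19 to 0.20 for Bcl2l1 (0.035 with quantile normalization) and from -0.082 to 0.035 for Bax. The difference of the response ran from -0.27 to 0.42 for Bok and from -0.43 to 0.37 for Bcl2l11. In single cells, r turned to 0.29 for Bcl2l1, 0.086 for Bak1 and 0.40 for Bmf without 216 h, to 0.31 for Bok and 0.11 for Bcl2l11 with the log10 of the mean RPKM, and to 0.036 for Bad without cell 16 of 216 h; Spearman's rho of Bad was 0.00. With 1 library per time and 3 per E14 group, the number of samples limits the precision.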
